A study of Mus musculus with 11 samples.

Results

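Chemokine and interleukin genes, with the genes of their receptors, were read out in mouse duodenal cells that had been sorted by a fluorescent enteroendocrine reporter. The genes were taken by symbol: every mouse gene named Ccl, Cxcl, Ccr, Cxcr or Il followed by a digit, with at least 15 counts summed over the 11 libraries. Of 38283 genes in the table, 138 symbols fitted the name pattern and 93 reached 15 counts. The other 45 lay below it, 26 of them at 0 counts. Il23a with 14 counts and Il17d with 13 lay just outside, and Il11 with 20 and Il2 with 24 just inside. By role the 93 genes were 12 CC chemokines, 12 CXC chemokines, 10 CC receptors, 5 CXC receptors, 16 interleukins, 3 soluble inhibitors, 33 interleukin receptor chains, and Il4i1 and Il1bos, which carry the name only.

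Sorted groups came from the duodenal epithelium of mice of 2 strains kept on standard chow. NeuroD1 positive cells (3 libraries) and NeuroD1 negative cells (3 libraries) came from Neurod1-cre-eYFP mice, in which a Cre recombinase driven by Neurod1, a transcription factor of enteroendocrine cells, switches on a yellow fluorescent protein. Such a reporter stays on in every descendant of a cell that has had Cre. Glu positive cells (3 libraries) and Glu negative cells (2 libraries) came from GluVenus mice, whose Venus reporter marks cells that express the proglucagon gene Gcg. The labels give no age, sex or other allele and do not say that the library numbers are separate mice, and the p-values therefore cover library-to-library spread only, part of which may be technical. Strain and reporter changed together, and they cannot be told apart in any comparison of NeuroD1 with Glu cells.

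Chemokines are small secreted proteins that draw leukocytes along a gradient by binding receptors of the seven-transmembrane class on their surface. Interleukins bind paired receptor chains, many of which are shared between several ligands, and most act on target cells through JAK kinases and STAT transcription factors or, for the IL-1 and IL-17 families, through adaptors that lead to NF-kB. In the small intestine the epithelium makes homing chemokines of its own, while most other genes of these families are read out in the lymphocytes and myeloid cells that lie within and below it. Enteroendocrine cells are the scattered hormone-producing cells of that epithelium.

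Promoter sequences are shown for 3 pairs of genes on which the results turn, from RefSeq (GRCm38.p6), each 250 bases before to 50 bases after the start and written 5′ to 3′ on the gene's strand. Of the 93 genes 73 had an entry, with 90 windows among them, since some genes have several starts. Capitals mark matches, on either strand, to 3 motifs. The first was CAGATG, an E-box of the kind bound by basic helix-loop-helix factors such as NeuroD1. The second was the consensus site of NF-kB, the transcription factor of inflammatory signalling, and the third TATAAA, the TATA box. No match of one motif overlapped a match of another in the 6 windows. Il6ra (chr3:89913147-89913446, minus strand) and Il17re (chr6:113458521-113458820, plus strand) are shown because both rose in NeuroD1 positive cells:
Il6ra: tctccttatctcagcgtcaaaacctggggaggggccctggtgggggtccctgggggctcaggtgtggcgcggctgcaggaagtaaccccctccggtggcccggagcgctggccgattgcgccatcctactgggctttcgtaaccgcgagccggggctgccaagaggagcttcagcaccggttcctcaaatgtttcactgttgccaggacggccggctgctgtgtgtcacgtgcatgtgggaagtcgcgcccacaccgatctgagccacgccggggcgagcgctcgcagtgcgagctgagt
Il17re: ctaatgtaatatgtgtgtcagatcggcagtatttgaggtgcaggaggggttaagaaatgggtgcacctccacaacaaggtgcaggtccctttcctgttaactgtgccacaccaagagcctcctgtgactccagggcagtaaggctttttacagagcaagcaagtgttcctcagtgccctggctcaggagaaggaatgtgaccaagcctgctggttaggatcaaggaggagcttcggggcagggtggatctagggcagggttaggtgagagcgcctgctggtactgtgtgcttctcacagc

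Cxcl2 (chr5:90903649-90903948, plus strand) and Il1b (chr2:129371090-129371389, minus strand) are shown because both fell in the positive cells of both strains:
Cxcl2: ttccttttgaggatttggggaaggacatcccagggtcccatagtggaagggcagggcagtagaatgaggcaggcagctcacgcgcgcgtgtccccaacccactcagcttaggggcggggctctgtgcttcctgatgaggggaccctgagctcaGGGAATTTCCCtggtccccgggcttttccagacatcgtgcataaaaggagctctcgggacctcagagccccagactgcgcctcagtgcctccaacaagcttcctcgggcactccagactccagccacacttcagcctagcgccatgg
Il1b: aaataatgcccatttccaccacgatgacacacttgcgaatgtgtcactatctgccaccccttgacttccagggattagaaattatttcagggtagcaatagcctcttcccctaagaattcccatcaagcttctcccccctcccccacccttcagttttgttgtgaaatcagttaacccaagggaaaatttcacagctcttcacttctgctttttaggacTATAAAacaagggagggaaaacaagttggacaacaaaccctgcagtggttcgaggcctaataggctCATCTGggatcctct

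Il17a (chr1:20730655-20730954, plus strand) and Il22 (chr10:118204714-118205013, plus strand) are shown because both stood far higher in a single Glu positive library than anywhere else:
Il17a: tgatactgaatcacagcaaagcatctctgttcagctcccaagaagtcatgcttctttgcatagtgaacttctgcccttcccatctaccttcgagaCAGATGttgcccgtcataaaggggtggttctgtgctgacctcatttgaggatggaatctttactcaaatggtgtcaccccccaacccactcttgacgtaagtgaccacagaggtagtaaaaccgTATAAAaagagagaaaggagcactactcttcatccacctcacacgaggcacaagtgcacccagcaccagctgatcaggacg
Il22: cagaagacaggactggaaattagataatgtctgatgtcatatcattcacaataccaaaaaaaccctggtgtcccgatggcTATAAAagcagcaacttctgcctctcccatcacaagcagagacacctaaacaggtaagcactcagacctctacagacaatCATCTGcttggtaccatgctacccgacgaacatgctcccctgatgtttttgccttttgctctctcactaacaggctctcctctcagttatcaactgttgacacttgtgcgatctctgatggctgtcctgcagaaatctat

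None of the 3 motifs occurred in the Il6ra and Il17re windows. The Il17re window lies wholly downstream of the gene start given below, so it describes a RefSeq start inside that gene. The Cxcl2 window held 2 overlapping matches to the NF-kB consensus on opposite strands. Il1b, Il17a and Il22 each had 1 CAGATG and 1 TATAAA match. Counted per window, CAGATG was found in 20 of the 90 (22.2%), against 17.2% of 32851 promoters of the same length. The NF-kB consensus was found in 15 windows (16.7%) against 8.46%. The share depended on the form searched: a narrower 10-letter form was in 7 windows (7.78%) against 1.47%, and GGAANTTCC in 10 (11.1%) against 0.928%, and these forms were tried one after another with the counts seen. Cxcl1, Cxcl2, Cxcl3, Cxcl10, Ccr3 and Il16 held all 3 forms. TATAAA was found in 18 windows (20%) against 13.6%. Cxcl1, Cxcl2 and Cxcl3 are close copies, and a match is a description of letters in a window.

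Libraries held 2279595 to 5722381 counts, and 14332 genes passed the filter on low counts, 76 of the 93 among them. Neurod1 and Gcg checked the sort. Neurod1 stood at 394 to 540 CPM (counts scaled to a common library size, with TMM factors) in NeuroD1 positive libraries against 35.6 to 49.8 CPM in NeuroD1 negative ones. Gcg stood at 20199 to 60981 CPM in Glu positive libraries against 2272 and 3166 CPM in Glu negative ones. The summed level of 5 pan-leukocyte markers, all detected in every library, lay between 6.61 and 27.5 CPM in NeuroD1 positive libraries, against 254 to 650 CPM in their negative counterparts. It lay between 236 and 1296 CPM in Glu positive libraries, against 974 and 1024 CPM in Glu negative ones. All 5 passed as lower in NeuroD1 positive than in NeuroD1 negative cells, and 1 of 5 passed in the Glu comparison. Of 7 T cell and NK markers, summed at 13.7 to 58.1 CPM in NeuroD1 positive against 347 to 451 in NeuroD1 negative libraries and 274 to 1610 in Glu positive against 997 and 1160 in Glu negative libraries, 7 passed as lower in the NeuroD1 and 3 in the Glu comparison. Of 8 myeloid markers 7 were tested. Their sum was 10.7 to 16.5 CPM in NeuroD1 positive against 67.2 to 151 CPM in NeuroD1 negative libraries, where 6 passed as lower, and 16.7 to 43.1 CPM in Glu positive against 225 and 343 CPM in Glu negative libraries, where 5 did. Cd68, Foxp3 and Cd3g were among the markers at 0 in at least 1 NeuroD1 positive library. The part of these cell types in the results on chemokine and interleukin genes was not tested, and in bulk RNA fewer cells of a type and less RNA per cell cannot be told apart. Library Glu_positive_5254 stood apart from the other 2 of its group in genes described below. The changes of several of the 93 genes are given with and without it, and those of marker and pathway genes with it only.

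Summed over all 93 genes, the families were at their lowest in NeuroD1 positive cells. Their summed level was 449, 580 and 611 CPM in NeuroD1_positive_6360, NeuroD1_positive_6361 and NeuroD1_positive_6362, against 1500, 1537 and 1167 CPM in NeuroD1_negative_6360, NeuroD1_negative_6361 and NeuroD1_negative_6362. In Glu_positive_5254, Glu_positive_5160 and Glu_positive_4665 it was 2627, 1066 and 928 CPM, against 2523 and 1986 CPM in Glu_negative_5254 and Glu_negative_4665. Values below follow these orders of libraries. The NeuroD1 groups did not overlap, and the Glu groups overlapped through Glu_positive_5254 alone. Interleukin receptor chains made up 61.9% to 68.6% of the sum in NeuroD1 positive libraries, against 34.3% to 40.7% in NeuroD1 negative ones. They made up 35.3% to 47.7% in Glu positive against 37.7% and 49% in Glu negative libraries.

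**Figure D1:**
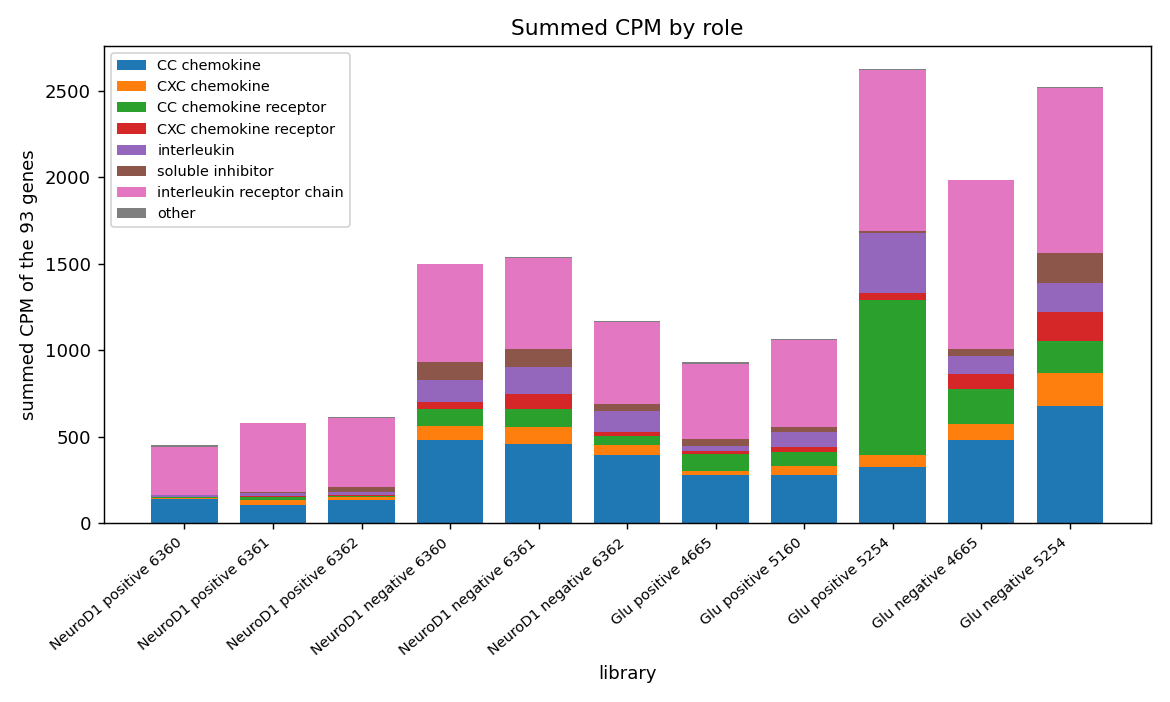
Summed CPM of the 93 genes in each of the 11 libraries, stacked by role. NeuroD1 positive libraries hold 449 to 611 CPM, most of it from interleukin receptor chains, and Glu_positive_5254 holds 895 CPM of CC chemokine receptors, against 84.4 and 98.6 CPM in the other Glu positive libraries.

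The main question of the design is what the reporter-positive cells express relative to their negative neighbours. In NeuroD1 positive cells 33 of the 76 tested genes fell relative to NeuroD1 negative cells (edgeR's quasi-likelihood test, Benjamini-Hochberg adjusted p under 0.05), where 7.61% of all tested genes did, and 2 rose, where 6.57% of all did. The median log2 fold change of the 76 genes was -3.12, or -2.41 with the 10 genes at 0 counts in a group placed at their bound, against 0.02 over all genes. In Glu positive cells 13 genes fell relative to Glu negative cells, where 2.41% of all genes did, and 1 rose, where 4.22% of all did. The median was -0.99 against 0.12 over all genes, and no gene tested there had a group at 0 counts apart from Cxcl17, which was at 0 in both. The 2 comparisons share no library, although the fit shares its estimate of spread among all 4 groups. The genes that fell in both numbered 10, which is 30.3% of those that fell in NeuroD1 and 76.9% of those that fell in Glu cells. The 10 were the chemokines Ccl3, Ccl5, Ccl9 and Cxcl2, the receptor Cxcr4, the interleukins Il1a and Il1b, the inhibitor Il1rn, and the receptor chains Il2rb and Il7r. Fitted with the groups compared alone, the counts of lower genes were 21 in NeuroD1 and 7 in Glu positive cells. In that NeuroD1 fit 2673 of all 11507 tested genes were called, 49.3% of them higher. Of the 35 genes called above, 20 were tested in it and the others were not. In that Glu fit 340 of all 13249 tested genes were called, 57.4% of them higher. With all 4 groups fitted and TMM scaling, 46.3% and 63.6% of all calls in the NeuroD1 and Glu comparisons were higher. With library totals 2010 and 849 of all 14332 genes were called, 31.5% and 42.4% of them higher. Library totals lowered the median of all genes to -0.28 and -0.19 and left 38 and 17 of the 76 genes lower. DESeq2 called 36 lower and 2 higher in NeuroD1, where 9.76% and 7.78% of all genes were, and 17 lower and 3 higher in Glu positive cells, where 3.95% and 6.81% of all were.

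**Figure D2:**
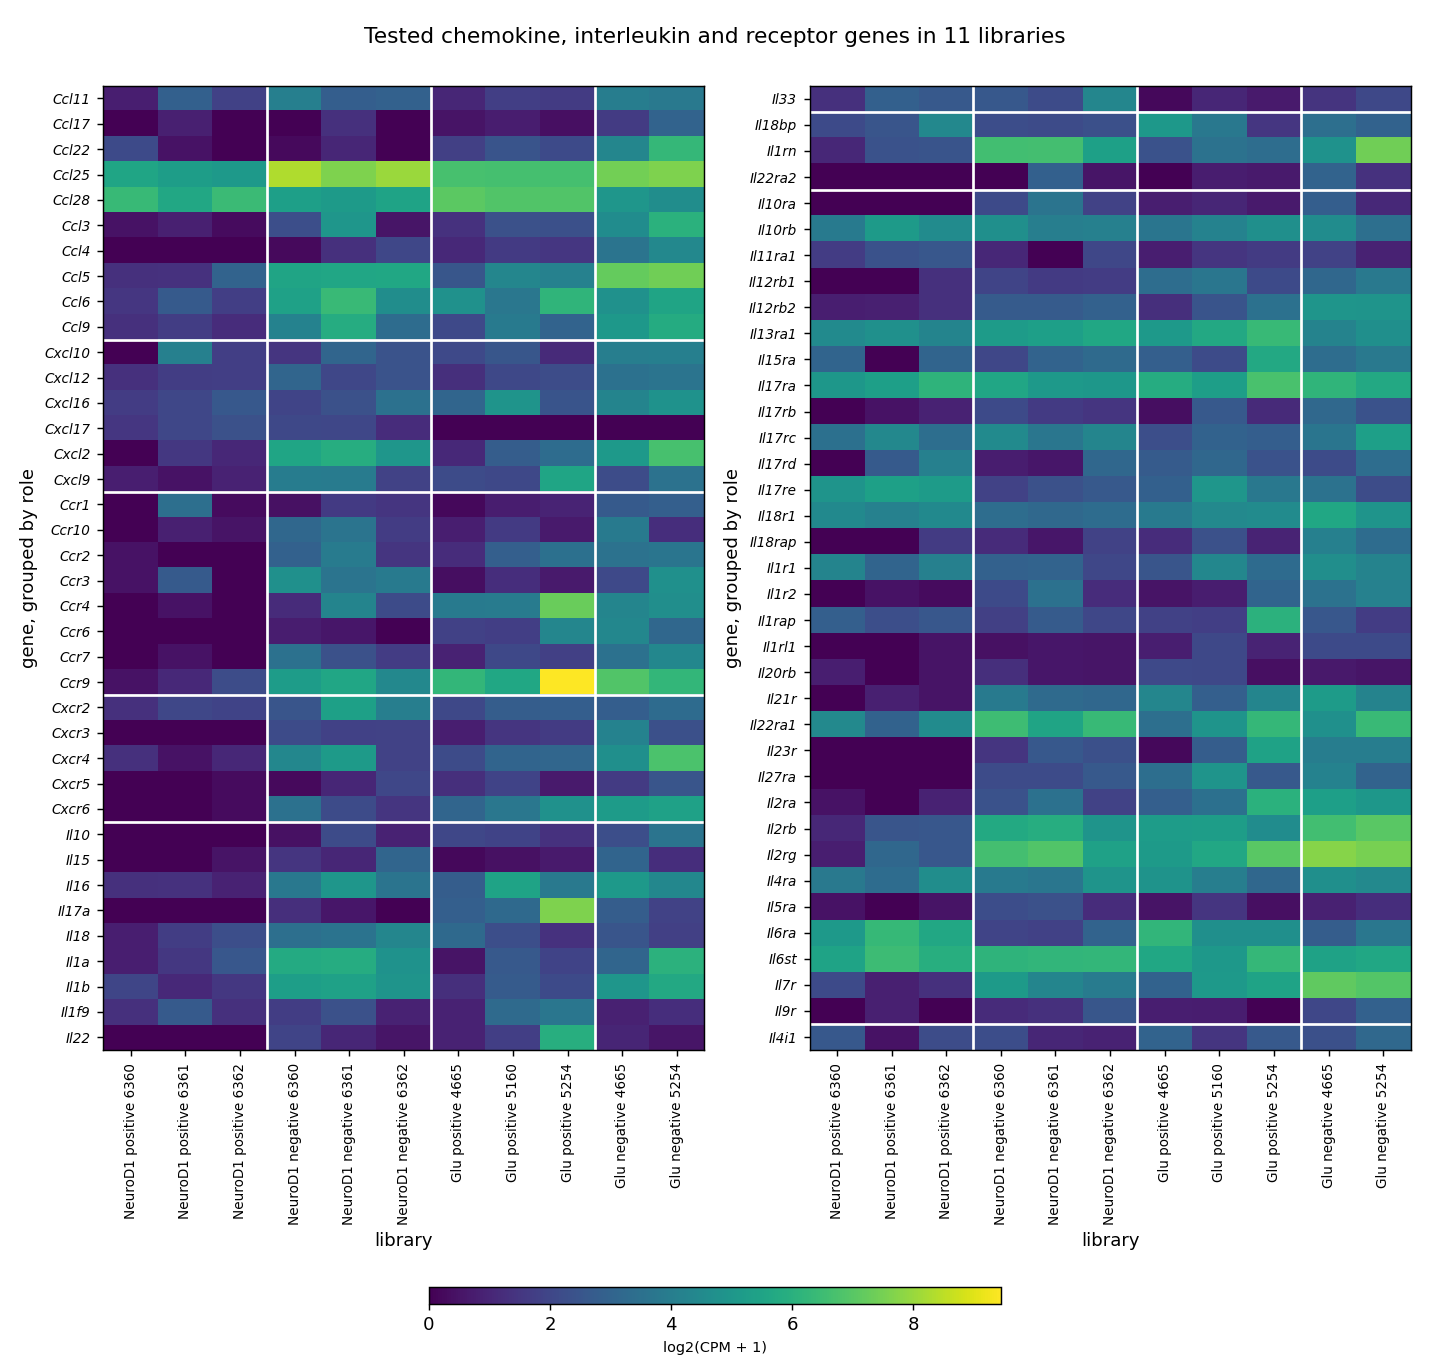
Level of the tested genes but 1, as log2(CPM + 1) by colour, in each library (columns, ordered NeuroD1 positive, NeuroD1 negative, Glu positive, Glu negative), with white lines between roles and groups. Most rows are darkest in the 3 NeuroD1 positive columns, Ccl25 and Ccl28 are bright throughout, and Ccr9, Il17a and Ccr4 are brightest in Glu_positive_5254, at 698, 195 and 156 CPM.

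Of the 10 tested CC chemokines, 6 fell in NeuroD1 positive cells and 5 in Glu positive cells, and 1 rose in Glu positive cells. Ccl28 is a mucosal chemokine of epithelial cells that draws IgA plasma cells through Ccr10. Its gene lies at chr13:119623819-119654359 on the plus strand. Ccl28 had 118, 118 and 134 CPM in Glu positive libraries, against 23.7 and 30.1 CPM in Glu negative libraries. The groups lay far apart, and Ccl28 rose by a log2 fold change of 2.19 ± 0.42 (SE, adjusted p = 0.00381). Without Glu_negative_5254 the adjusted p of Ccl28 was 0.0906, and without Glu_negative_4665 it was 0.0594. In NeuroD1 positive libraries Ccl28 had 80.8, 49.2 and 86.3 CPM, against 39.7, 34.1 and 44.1 CPM in NeuroD1 negative libraries. Those groups did not overlap either, but the change of 0.88 ± 0.35 did not pass (adjusted p = 0.106). Per kilobase of exon Ccl28 was the highest of the 93 genes in NeuroD1 positive cells, at 14.9 CPM per kb. Its receptor gene Ccr10 fell in NeuroD1 positive cells by -4.09 ± 1.18, with 0 to 0.763 CPM against 2.18 to 11.5 CPM. The call on Ccr10 was lost when any 1 of 4 NeuroD1 libraries was left out (adjusted p = 0.0647 to 0.0897).

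Ccl25 is the small-intestinal homing chemokine made by enterocytes, and it draws gut-homing T cells through Ccr9. It had 46.3, 37 and 32.8 CPM in NeuroD1 positive libraries, against 318, 196 and 261 CPM in NeuroD1 negative libraries. Every NeuroD1 positive value lay far below every negative one, and Ccl25 fell by -2.74 ± 0.33 (adjusted p = 1.92e-05). In Glu positive libraries it had 99.2, 101 and 104 CPM, against 195 and 172 CPM in Glu negative libraries. The Glu groups did not overlap, and the change of -0.86 ± 0.33 did not pass (adjusted p = 0.131). Enterocyte markers fell as well: 5 of 5 passed as lower in NeuroD1 and 3 of 5 in Glu positive cells. This was not particular to them: 4 of 4 goblet and 3 of 3 Paneth cell markers passed as lower in NeuroD1 cells, and 0 of each in Glu cells. Of 3 stem cell markers 0 passed in either. Between the positive populations 1 of 5 enterocyte and 4 of 4 goblet markers passed as lower in NeuroD1 cells. The part of these cell types was not tested. Between the positive populations Ccl25 fell in NeuroD1 relative to Glu cells by -1.39 ± 0.31 (adjusted p = 0.0102), which did not pass without NeuroD1_positive_6361 or NeuroD1_positive_6362 (adjusted p = 0.0543 to 0.0614). Exons of Ccl25 overlap those of Elavl1 on the other strand, and with the use of strand not given their reads may be shared.

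Ccl5, a T and NK cell chemokine (chr11:83525778-83530518, minus strand), fell in both strains. It had 1.47, 1.53 and 6.99 CPM in NeuroD1 positive libraries, against 45.1, 47.2 and 48 CPM in NeuroD1 negative libraries. It had 17, 19.3 and 4.7 CPM in Glu positive libraries, against 166 and 149 CPM in Glu negative libraries. No positive library reached a negative one of its strain. The log2 fold changes were -3.71 ± 0.61 (adjusted p = 0.000416) and -3.55 ± 0.61 (adjusted p = 0.00178), and their difference of -0.16 ± 0.79 did not pass (adjusted p = 0.97). Both calls on Ccl5 held whichever single library was left out. Ccl5 was also the highest of the 93 genes per kilobase in both negative groups, at 48.7 CPM per kb in NeuroD1 negative and 164 CPM per kb in Glu negative cells.

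Ccl5, Ccl9, Ccl6, Ccl3 and Ccl4 lie beside each other on chromosome 11 between 83525778 and 83664683, and all 5 fell in NeuroD1 positive cells. In Glu positive cells 3 of the 5 fell. Ccl3, a macrophage inflammatory protein, had 0.367, 0.763 and 0.212 CPM in NeuroD1 positive libraries, against 3.88, 30.1 and 0.437 CPM in NeuroD1 negative libraries. The groups overlapped through NeuroD1_negative_6362, and the fall of -4.66 ± 1.18 (adjusted p = 0.0114) did not pass without NeuroD1_negative_6361 or without NeuroD1_positive_6362. Ccl4, a related gene, had 0 counts in NeuroD1 positive against 11 in NeuroD1 negative libraries and was at least 3.71-fold lower. Whether Ccl3 and Ccl4 share reads was not tested. The call on Ccl4 was lost when any 1 of 6 libraries was left out (adjusted p = 0.0556 to 0.138). Ccl9, a myeloid chemokine, fell by -4.04 ± 0.78 in NeuroD1 and -2.48 ± 0.73 in Glu positive cells. In the Glu comparison the call on Ccl9 was lost when any 1 of 8 libraries was left out, with -2.06 (adjusted p = 0.299) without Glu_negative_5254, and that on Ccl3 when any 1 of 4 was, with -2.88 (adjusted p = 0.285) without the same library. Ccl6, another myeloid chemokine, fell by -3.98 ± 0.72 in NeuroD1 positive cells and had a change of 0.07 in Glu positive cells, where Glu_positive_5254 held 72.2 CPM, the other positive libraries 12.4 and 26.3 CPM, and the negative libraries 44.4 and 26.2 CPM. Without Glu_positive_5254 that change was -0.85 ± 0.61 (adjusted p = 0.454).

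Ccl22, a dendritic cell chemokine that binds Ccr4, fell in Glu positive cells. It had 3.34, 4.48 and 2.42 CPM in Glu positive libraries, against 77.2 and 19.2 CPM in Glu negative libraries. The change was -3.83 ± 1 (adjusted p = 0.0271), which did not pass without either Glu negative library or without Glu_positive_4665. NeuroD1 positive libraries had 3.31, 0.382 and 0 CPM and NeuroD1 negative libraries 0.176, 1 and 0 CPM, so both NeuroD1 groups were near the floor. Ccl11, the eosinophil chemokine eotaxin, fell by -2.96 ± 0.87 in Glu positive cells (adjusted p = 0.0492). This call lay at the threshold: it was lost with RLE size factors (adjusted p = 0.0515), with the groups compared alone (adjusted p = 0.109) and when any 1 of 9 of the 11 libraries was left out (adjusted p = 0.0609 to 0.227).

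**Figure D3:**
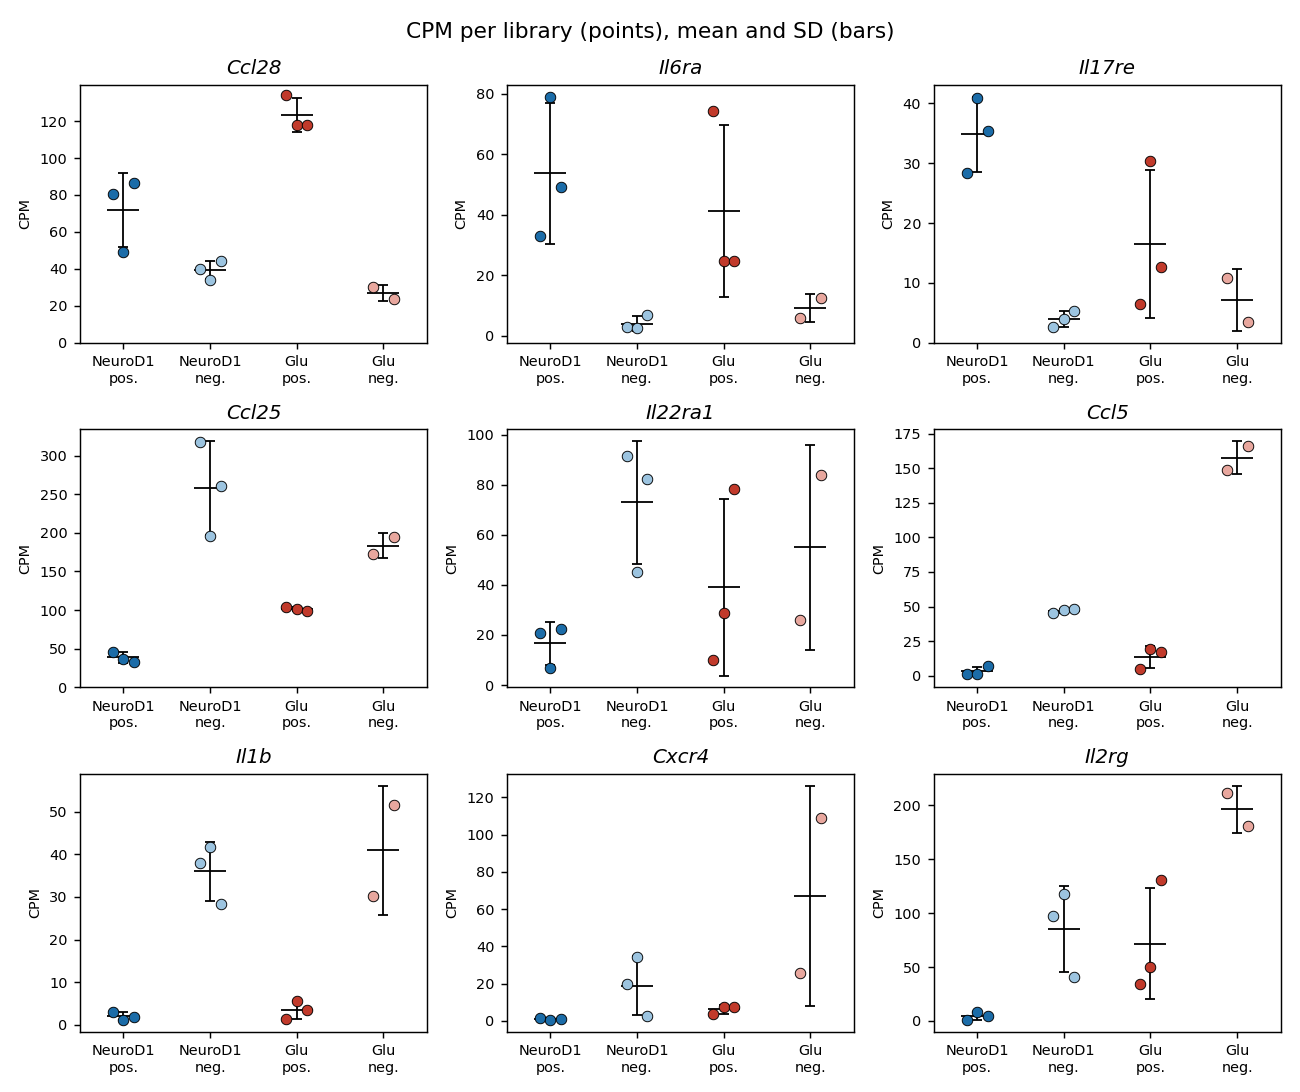
CPM of 9 genes in each library (points), with the mean and SD of each group (bars) on an axis from 0. Ccl28, Il6ra and Il17re are higher in NeuroD1 positive than in NeuroD1 negative cells, while Ccl25, Il22ra1, Ccl5, Il1b, Cxcr4 and Il2rg are lower. Of Ccl28, the NeuroD1 difference did not pass the test.

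Of the 12 CXC chemokine genes 6 were tested. Cxcl2 is a neutrophil chemokine whose promoter, shown above, holds the NF-kB motif. It had 0, 1.91 and 1.06 CPM in NeuroD1 positive libraries, against 45.5, 58.2 and 30.6 CPM in NeuroD1 negative libraries. It had 9.1, 5.86 and 1.14 CPM in Glu positive libraries, against 103 and 32.9 CPM in Glu negative libraries. The groups did not overlap in either strain, and Cxcl2 fell by -5.45 ± 0.87 (adjusted p = 0.000313) and by -3.69 ± 0.79 (adjusted p = 0.00839). Without Glu_negative_5254 the Glu change was -2.68 (adjusted p = 0.165). Its neighbours Cxcl1, Cxcl3 and Cxcl15 had too few counts to be tested, and Cxcl3 reached 12.6 CPM in Glu_negative_5254 alone. Cxcl9, an interferon-induced T cell chemokine, fell in NeuroD1 positive cells by -3.9 ± 1.12 (adjusted p = 0.0247), a call that was lost when any 1 of 5 NeuroD1 libraries was left out (adjusted p = 0.0583 to 0.0887). Cxcl17, a mucosal chemokine, had 1.84, 3.05 and 4.03 CPM in NeuroD1 positive and 3.17, 3.01 and 1.31 CPM in NeuroD1 negative libraries, and it was at 0 in all 5 Glu libraries. Cxcl10, Cxcl12 and Cxcl16 did not pass in either comparison.

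Receptors of both chemokine classes were low in NeuroD1 positive cells, with exceptions. Summed over the 10 genes, CC receptors had 1.47 to 18.7 CPM there, and the highest value of Ccr1 in all 11 libraries, 9.92 CPM, was in NeuroD1_positive_6361, which also held 5.34 CPM of Ccr3. Of 9 tested CC receptors 5 fell there, and of 5 CXC receptors 4 fell. In Glu positive cells 1 CC receptor, Ccr3, and 1 CXC receptor, Cxcr4, fell. Cxcr4, the receptor of Cxcl12 on most leukocytes, had 1.47, 0.382 and 1.06 CPM in NeuroD1 positive libraries, against 19.7, 34.1 and 2.62 CPM in NeuroD1 negative libraries. It had 7.58, 7.23 and 3.42 CPM in Glu positive libraries, against 109 and 25.4 CPM in Glu negative libraries. The fall was -4.21 ± 0.89 (adjusted p = 0.00326) and -3.48 ± 0.82 (adjusted p = 0.0163), with no overlap in either strain. Without Glu_negative_5254 the Glu change of Cxcr4 was -2.09 (adjusted p = 0.336). Cxcr2, the neutrophil receptor that binds Cxcl2, fell by -3.02 ± 0.8 in NeuroD1 positive cells, where it had 1.47, 3.05 and 2.75 CPM, against 4.58, 40.7 and 15.3 CPM in NeuroD1 negative libraries. Without NeuroD1_negative_6361 that change was -1.98 (adjusted p = 0.171), and the call was also lost without NeuroD1_positive_6360 or NeuroD1_positive_6362. Ccr3, the eosinophil receptor of Ccl11, had 0.607, 1.38 and 0.285 CPM in Glu positive libraries, against 26.1 and 3.22 CPM in Glu negative libraries, a fall of -4.34 ± 1.24 (adjusted p = 0.0427). It rested on Glu_negative_5254, without which it was -2.17 (adjusted p = 0.504), and the call was lost when any 1 of 8 libraries was left out and with the groups compared alone (adjusted p = 0.0594).

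Several receptors had 0 to 3 counts over the 3 NeuroD1 positive libraries together, so their change is given as a ratio of scaled counts with its 95% counting interval, or as a bound from a floor of 3 counts over the group. Ccr4, a receptor of Th2 and regulatory T cells, had 1 count in NeuroD1 positive against 51 in NeuroD1 negative libraries, a ratio of 51.5 (8.84 to 2080). Ccr7, the lymph node homing receptor, had 1 against 73 counts (ratio 73.8, 12.8 to 2950). Cxcr6, a receptor of tissue-resident lymphocytes, had 1 against 71 counts (ratio 71.8, 12.5 to 2870). Ccr2, the monocyte receptor, had 1 against 70 counts (ratio 70.7, 12.3 to 2830), and Cxcr3, the receptor of Cxcl9 and Cxcl10, had 0 against 31 counts and was at least 10.4-fold lower. All 5 passed in edgeR. The call on Ccr4 did not hold without NeuroD1_positive_6360 or NeuroD1_positive_6362, or without NeuroD1_negative_6361, which alone held 18.1 of its CPM against 1.23 and 3.49 in the other negative libraries.

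Ccr9, the receptor of Ccl25 (chr9:123678439-123784330, plus strand), fell in NeuroD1 positive cells. It had 0.367, 1.14 and 3.6 CPM in NeuroD1 positive libraries, against 36.7, 46.7 and 20.5 CPM in NeuroD1 negative libraries, a change of -4.17 ± 0.89 (adjusted p = 0.00359). In Glu positive libraries it had 698, 48.9 and 76.2 CPM, against 75.8 and 117 CPM in Glu negative libraries. The value of 698 CPM stood alone, and the Glu change was 1.51 with Glu_positive_5254 and -0.62 ± 0.53 (adjusted p = 0.551) without it. Exons of Ccr9 overlap those of Slc6a20a on the other strand and of Gm17200 on the same strand.

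Of 10 tested interleukins 4 fell in NeuroD1 positive cells and 2 of them, the pair of IL-1 ligands, in Glu positive cells. Il1b (chr2:129364570-129371139, minus strand) encodes the inflammatory cytokine IL-1 beta. It had 2.94, 1.14 and 1.91 CPM in NeuroD1 positive libraries, against 37.9, 41.7 and 28.4 CPM in NeuroD1 negative libraries, and fell by -4.15 ± 0.65 (adjusted p = 0.000238). It had 3.34, 5.51 and 1.42 CPM in Glu positive libraries, against 51.7 and 30.3 CPM in Glu negative libraries, and fell by -3.62 ± 0.64 (adjusted p = 0.00224). Neither strain showed any overlap, and both calls held whichever single library was left out. Il1a, the cell-bound IL-1 alpha, fell by -4.11 ± 0.9 and -3.82 ± 0.93. Il1rn, the secreted IL-1 receptor antagonist, moved with the ligands it blocks, falling by -4.55 ± 0.71 (adjusted p = 0.000243) and -3.61 ± 0.69 (adjusted p = 0.00416). It had 1.1, 4.2 and 4.45 CPM in NeuroD1 positive libraries, against 95.5, 98.4 and 40.2 CPM in NeuroD1 negative libraries. Without Glu_negative_5254 the Glu changes of Il1a and Il1rn were -1.55 (adjusted p = 0.498) and -1.79 (adjusted p = 0.26). Exons of Il1b overlap the antisense gene Il1bos, and those of Il1a overlap Gm14023.

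Il16, a CD4 ligand of lymphocytes, fell in NeuroD1 positive cells by -3.82 ± 0.8 (adjusted p = 0.00314). Il10, the inhibitory cytokine, had 0 counts in NeuroD1 positive against 11 in NeuroD1 negative libraries, which makes it at least 3.71-fold lower, and the call was lost when any 1 of 7 libraries was left out (adjusted p = 0.0527 to 0.168). Il17a, the cytokine of Th17 cells, had 0 against 9 counts in the same groups, at least 3.03-fold lower, and did not pass (adjusted p = 0.247). Il18, an IL-1 family cytokine that the epithelium makes, had 0.734, 2.29 and 3.81 CPM in NeuroD1 positive libraries, against 9.87, 11 and 19.2 CPM in NeuroD1 negative libraries. These groups did not overlap, and the change of -2.49 ± 0.83 had an adjusted p of 0.0511. Il18 passed with RLE size factors (adjusted p = 0.0421), with library totals (0.0404), with the groups compared alone (0.0115) and in DESeq2 (0.0112). It passed in no fit that left out a NeuroD1 library. The alarmin Il33 had a change of -1.05 ± 0.89 that did not pass.

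**Figure D4:**
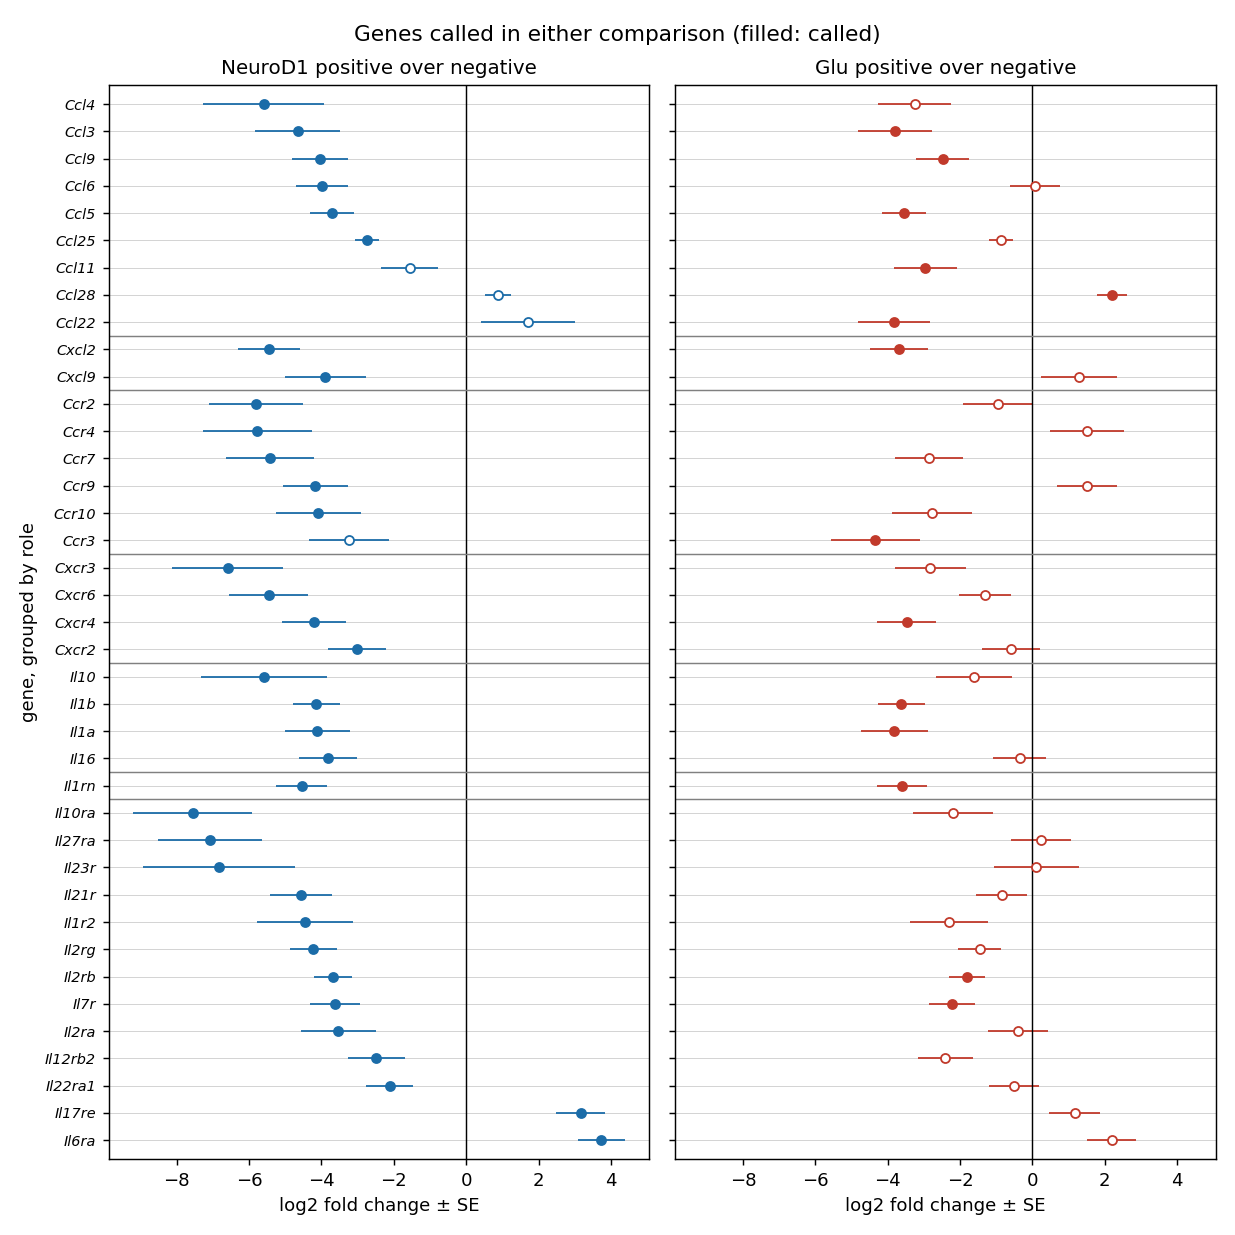
Log2 fold change with its SE, positive over negative, of every gene called in either strain's comparison (NeuroD1 left, Glu right), grouped by role. Filled points were called. Among the genes called in NeuroD1, Il6ra at 3.73 and Il17re at 3.16 stand right of 0, and in the Glu panel Ccl28 at 2.19 is the called gene right of 0. Points left of -5 include genes with 0 to 3 counts in a group, whose fitted value is no bound.

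Of 32 tested interleukin receptor chains, 11 fell in NeuroD1 positive cells, where 7.61% of all genes did. A further 2 rose, where 6.57% of all did, so that count is near the share of all genes. The other 19 did not pass. Those that rose were Il6ra and Il17re. Il6ra (chr3:89864059-89913196, minus strand) encodes the IL-6 binding chain, which signals with Il6st. It had 33.1, 79 and 49.2 CPM in NeuroD1 positive libraries, against 2.82, 2.51 and 6.98 CPM in NeuroD1 negative libraries. Every positive library lay above every negative one, and Il6ra rose by 3.73 ± 0.65 (adjusted p = 0.000624). In Glu positive libraries it had 24.9, 24.8 and 74.2 CPM, against 12.4 and 5.88 CPM in Glu negative libraries. Those groups did not overlap, and the change of 2.19 ± 0.68 had an adjusted p of 0.0616. Without Glu_positive_5254 it was 2.46 ± 0.64 (adjusted p = 0.0242), and DESeq2 gave 2.13 (adjusted p = 0.0122). It also passed without Glu_positive_5160 (adjusted p = 0.0384) and with no filter on low counts (adjusted p = 0.019). It did not pass with RLE size factors, library totals, the replicate block or the groups compared alone, or without Glu_positive_4665. The difference between the strains, 1.54 ± 0.87, did not pass (adjusted p = 0.549). Exons of Il6ra overlap Gm42809 on the other strand.

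Il17re (chr6:113458484-113470758, plus strand) encodes the chain that binds IL-17C, a cytokine of epithelial cells. It had 28.3, 40.8 and 35.4 CPM in NeuroD1 positive libraries, against 2.64, 4.02 and 5.24 CPM in NeuroD1 negative libraries, and rose by 3.16 ± 0.68 (adjusted p = 0.00394). In Glu positive libraries it had 12.7, 30.3 and 6.41 CPM, against 3.54 and 10.8 CPM in Glu negative libraries. These groups overlapped and the change of 1.17 did not pass. Il17c, its ligand, had 10 counts over all 11 libraries, and Il6, the ligand of Il6ra, had 5, so both lay below the minimum.

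The chains that pair with them did not pass in either strain. Il6st, the shared signalling chain gp130, had 43.3, 88.9 and 60.4 CPM in NeuroD1 positive libraries, against 69.8, 74.3 and 74.7 CPM in NeuroD1 negative libraries, a change of -0.18 ± 0.39. Il17ra, the shared chain of IL-17 receptors, had 31.2, 39.3 and 68.9 CPM in NeuroD1 positive libraries, against 46.9, 32.6 and 31 CPM in NeuroD1 negative libraries, a change of 0.33 ± 0.44. Both groups overlapped for both genes, and the changes in Glu positive cells were 0.21 ± 0.44 and 0.12 ± 0.49. Il4ra (-0.24 ± 0.59) and Il10rb (0.31 ± 0.54), shared chains of the IL-4 and IL-10 receptor families, did not pass either. A p that misses the threshold does not show that these levels are equal. Per kilobase, 8 of the 10 highest of the 93 genes in NeuroD1 positive cells were interleukin receptor chains, from Il22ra1 at 6.52 through Il10rb, Il6ra, Il17re, Il13ra1, Il6st and Il17ra to Il17rc at 5 CPM per kb. In NeuroD1 negative cells the same measure was led by Ccl5 at 48.7, Il2rg at 35.8 and Ccl25 at 34.7 CPM per kb.

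Il22ra1, the epithelial chain of the IL-22 receptor, is 1 of the 11 that fell. It had 20.9, 6.87 and 22.5 CPM in NeuroD1 positive libraries, against 91.5, 45.2 and 82.1 CPM in NeuroD1 negative libraries, a fall of -2.11 ± 0.65 (adjusted p = 0.0367). The call was lost when any 1 of 5 of the 6 NeuroD1 libraries was left out, with changes of -2.39 to -1.74 (adjusted p = 0.0682 to 0.142). In Glu positive libraries it had 78.3, 28.9 and 9.97 CPM, against 84 and 25.9 CPM in Glu negative libraries, with full overlap and a change of -0.5. The other chains that fell are mostly read out in lymphocytes and myeloid cells. Il2rg, the common gamma chain, whose exons overlap those of Gm20489 on the same strand, had 0.734, 8.01 and 4.87 CPM in NeuroD1 positive libraries, against 97.1, 118 and 41 CPM in NeuroD1 negative libraries, a fall of -4.22 ± 0.65 (adjusted p = 0.000224). Its partners Il2rb, Il7r and Il2ra fell by -3.68 ± 0.53, -3.62 ± 0.69 and -3.53 ± 1.03, and Il21r by -4.56 ± 0.86. Il12rb2, a chain of the IL-12 receptor, fell by -2.48 ± 0.8, a call lost when any 1 of 8 libraries was left out (adjusted p = 0.069 to 0.131). Il10ra had 0 against 48 counts and was at least 16.2-fold lower, Il27ra had 0 against 39 counts and was at least 13.1-fold lower, and Il23r had 0 against 29 counts and was at least 9.77-fold lower. Il1r2, the IL-1 decoy receptor, had 2 against 43 counts (ratio 21.7, 5.66 to 185). Calls were lost when any 1 of 5 NeuroD1 libraries was left out for Il23r, of 4 for Il1r2 and of 3 for Il2ra. In all, 12 of the 35 genes called in NeuroD1 cells lost the call without at least 1 library.

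In Glu positive cells 2 receptor chains fell. Il7r, the IL-7 receptor of lymphocytes, had 43.7, 32.4 and 6.84 CPM in Glu positive libraries, against 119 and 139 CPM in Glu negative libraries, a fall of -2.23 ± 0.63 (adjusted p = 0.0398). Il2rb fell by -1.82 ± 0.5 (adjusted p = 0.037). Without Glu_negative_5254 the adjusted p was 0.153 for Il7r and 0.288 for Il2rb, and each lost its call when any 1 of 5 libraries was left out. Il17rc, the chain that pairs with Il17ra, had 6.07, 6.89 and 3.85 CPM in Glu positive libraries, against 38.9 and 11.6 CPM in Glu negative libraries, and its change of -2.18 ± 0.66 had an adjusted p of 0.0532. The count of 13 genes that fell in Glu cells rests on both negative libraries. A fit without 1 of them leaves a single negative library, and it called fewer of all genes as well. The count was 7 without Glu_positive_4665, where 1068 of all 14171 tested genes were called, 74.2% of them higher. It was 8 without Glu_positive_5160, where 1126 of 14211 were called, 72.6% of them higher. With all libraries 951 of 14332 were called, 63.6% of them higher. Of the 14 genes called in Glu cells, 12 lost the call without at least 1 library, all but Ccl5 and Il1b.

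Library Glu_positive_5254 held the highest value of all 11 libraries for 16 of the 93 genes, and for 10 of these it stood at 3 or more times the next library. Glu_negative_5254 held the highest value for 27 and Glu_negative_4665 for 15. Of the 76 tested genes Glu_negative_5254 held 23 (30.3%), against 8.62% of all 14332, and Glu_negative_4665 held 13 (17.1%), against 7.38%. Many genes outside these families were highest in Glu_positive_5254 as well: of the tested genes it held 12 of the 76 (15.8%), against 21.8% of all 14332. Of the 76 genes 7 reached 3 times the next library there, and 3.5% of all genes did. Il17a (chr1:20730905-20734496, plus strand) had 642 counts there, at 195 CPM, against at most 8.27 CPM elsewhere. Il22, a cytokine of Th17 and innate lymphoid cells that acts on epithelium, had 197 counts and 59.8 CPM, against at most 2.82 CPM. Il21, a T cell cytokine, had 33.4 CPM against at most 1.85 CPM. The Th2 cytokines Il4 and Il13 had 7.58 and 13.3 CPM, against at most 0.7 and 1.51 CPM. Cytokines of several T helper types were thus highest in the same library.

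Among receptors, Ccr9 had 698 CPM there against at most 117 CPM elsewhere, and Ccr4 (chr9:114490316-114504916, minus strand) had 156 against at most 24.3 CPM. Il1rap, the shared IL-1 receptor accessory chain, had 65.5 against at most 6.24 CPM, and Il15ra, which presents IL-15, had 51 against at most 13 CPM. Cxcl9 completed the 10 with 46.1 against at most 14.6 CPM. Il23r, the receptor of Th17 cells, followed at 43.1 against at most 15.1 CPM, and Il2ra at 64 against at most 39.6 CPM. Other genes of lymphocytes were below their highest elsewhere: Cxcr3 had 2.12 against 17.2 CPM, Ccl5 17 against 166 CPM and Il7r 43.7 against 139 CPM. Relative to the higher of the other Glu positive libraries, Cxcr3 stood at 1.23, Il7r at 1.35 and Ccl5 at 0.881 times its level. On that measure Il2rg stood at 2.61, Il12rb2 at 2.37 and Cxcr6 at 2.15.

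Some marker genes were also highest in the same library, as were 21.8% of all tested genes. They were 3 of 3 regulatory T cell, 2 of 7 T cell and NK, 2 of 5 pan-leukocyte, 0 of 5 B and plasma cell and 0 of 8 myeloid markers. Cd4 had 923 CPM against at most 121 CPM elsewhere, and the regulatory T cell genes Ctla4, Foxp3 and Ikzf2 had 239, 43.4 and 181 CPM, against at most 30, 14.5 and 73.7 CPM. Cd3e had 544 against at most 388 CPM and Ptprc, the pan-leukocyte antigen CD45, 450 against at most 281 CPM, while Cd8a was low at 11.2 CPM against up to 122 CPM. Other T cell, NK and leukocyte markers were below their highest elsewhere: Gzma had 87.7 against 392 CPM, Gzmb 11.2 against 121, Nkg7 12.1 against 66.4, Cd3g 20.6 against 34.9 and Coro1a 33.1 against 169. Of 3 stem cell markers 2 were highest there, among them Lgr5 with 130 against at most 26.6 CPM, while Ascl2 had 1.52 against 11.4 CPM. Of 6 enteroendocrine markers 2 were highest there, Neurod1 and Gcg, the latter at 60981 CPM against at most 25873 CPM. The others were below their highest elsewhere: Chga had 116 against 2668 CPM, Chgb 9033 against 52620, Scg2 1982 against 2783 and Cck 31875 against 74146. The part of all these marker genes in the values of Il17a, Il22, Ccr4 and Ccr9 was not tested. Of the 50 genes on the list of pathway genes 5 were highest there, a smaller part than the 21.8% of all tested genes. Those named next were picked after their values were seen. Socs3, a feedback inhibitor induced by STAT3, had 475 against at most 49.7 CPM, and the kinases Jak1 and Jak2 had 686 and 202 CPM, against at most 252 and 92.9 CPM. Cish, which STAT5 induces, had 4.55 against at most 44.8 CPM, and Tyk2, Jak3, Stat3 and Stat4 were also below their highest elsewhere.

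**Figure D5:**
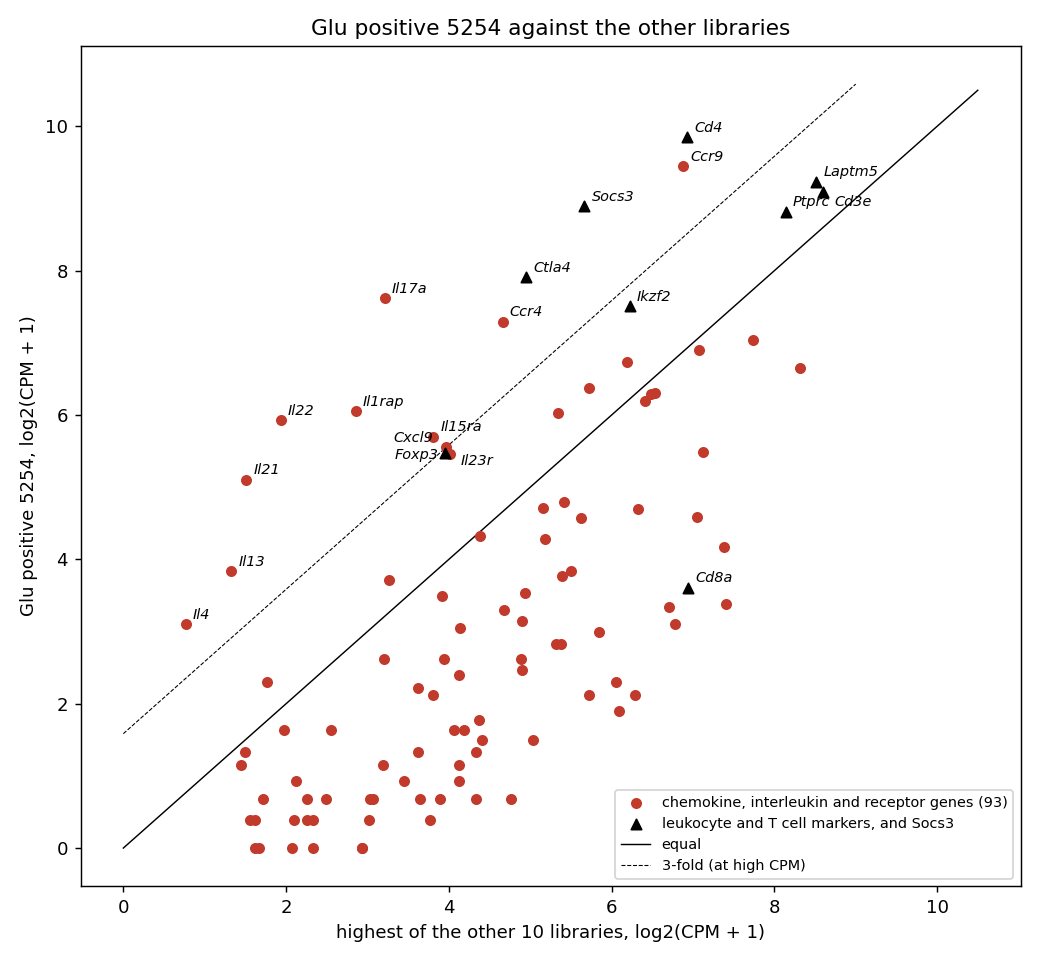
Level of each of the 93 genes (circles), of leukocyte and T cell markers and of Socs3 (triangles) in Glu_positive_5254 (vertical) against the highest of the other 10 libraries (horizontal), both as log2(CPM + 1). Il17a, Il22, Il21, Il4, Il13, Il1rap, Ccr4, Ccr9, Il15ra, Cd4, Ctla4 and Socs3 lie above the dashed 3-fold line, and Cxcl9 lies just above it. Cd8a lies far below the line of equality.

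In the Glu comparison Il17a had 195, 8.27 and 6.27 CPM in positive libraries, against 2.65 and 5.88 CPM in negative libraries. The groups did not overlap, but the change of 4 ± 1.3 did not pass (adjusted p = 0.0756), and without Glu_positive_5254 it was 0.76 ± 1.12 (adjusted p = 0.762). Il17a passed with no filter on low counts (adjusted p = 4.98e-05) and without Glu_positive_4665 (0.0325) or Glu_positive_5160 (0.0335). These fits keep Glu_positive_5254. Ccr4 had 156, 14.1 and 14 CPM in Glu positive libraries, against 24.3 and 18.8 CPM in Glu negative libraries. Its change of 1.51 ± 1.02 did not pass (adjusted p = 0.396) and was -0.61 ± 0.91 (adjusted p = 0.762) without Glu_positive_5254. Il22 overlapped between the groups, its change of 4.78 ± 1.59 did not pass (adjusted p = 0.0839), and without Glu_positive_5254 it no longer reached the filter on low counts. With that library kept, Il22 passed in DESeq2 (adjusted p = 0.00646), with no filter (0.00148) and without Glu_positive_4665 (0.0325) or Glu_positive_5160 (0.0475). Leaving out Glu_positive_5254 turned the sign for Ccr4 and lowered the value for Il17a.

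The positive populations were compared directly, which sets the broad NeuroD1 sort against the narrower proglucagon sort. In NeuroD1 positive cells 22 of the 76 genes fell relative to Glu positive cells, where 4.95% of all genes did, and 1 rose, where 3.18% of all did. The median log2 fold change was -1.93, or -1.46 with 11 genes placed at their bound, against -0.14 over all genes. Without Glu_positive_5254 the count of lower genes was 18: Ccl4, Cxcl9 and Cxcr3 did not pass, and Il22 no longer reached the filter on low counts. DESeq2 called 26 lower and 2 higher, where 7.82% and 4.95% of all genes were. Il17a had 0 counts in NeuroD1 positive against 710 in Glu positive libraries and was at least 180-fold lower, or at least 23-fold without Glu_positive_5254, where 68 counts were left. Also at 0 counts in NeuroD1 positive libraries were Il22 (at least 53.3-fold lower, 4.39-fold without Glu_positive_5254), Il27ra (42.4-fold and 50.7-fold), Il23r (40.6-fold and 6.08-fold) and Ccr6, a receptor of Th17 cells (22.3-fold and 8.45-fold). Ccr4 had 1 against 653 counts, a ratio of 497 (88.9 to 19700), and 1 against 139 counts without Glu_positive_5254, a ratio of 141 (24.9 to 5610).

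Calls on several of the lower genes held without Glu_positive_5254. Il2rg had 0.734, 8.01 and 4.87 CPM in NeuroD1 positive libraries, against 131, 50.3 and 34.2 CPM in Glu positive libraries. It fell by -3.97 ± 0.65 (adjusted p = 0.00104), and by -3.2 ± 0.54 (adjusted p = 0.00153) without Glu_positive_5254. Ccr9 fell by -7.15 ± 0.97 with that library and by -5.02 ± 0.58 (adjusted p = 2.72e-05) without it. Il21r, Il7r, Il16, Il2rb and Ccl6 fell by -5.11 ± 0.86, -3.89 ± 0.69, -4.04 ± 0.8, -3.15 ± 0.52 and -3.56 ± 0.71. Without it, in the same order, the changes were -4.92 ± 0.86, -3.38 ± 0.66, -4.29 ± 0.8, -3.33 ± 0.48 and -2.65 ± 0.61 (adjusted p = 0.00036 to 0.0146). Pan-leukocyte markers fell as well: 5 of 5 passed as lower, at 6.61 to 27.5 CPM in sum in NeuroD1 positive against 236 to 1296 CPM in Glu positive libraries. Also lower were 7 of 7 T cell and NK and 4 of 4 goblet markers, against 1 of 7 myeloid and 1 of 5 enterocyte markers. The part of these cell types was not tested. The gene that rose was Cxcl17, with 32 counts in NeuroD1 positive and 0 in Glu positive libraries, at least 14-fold higher, or at least 10.5-fold without Glu_positive_5254. It was at 0 in the Glu negative libraries as well. Il6ra (0.37 ± 0.56) and Ccl28 (-0.77 ± 0.34) did not pass.

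Between the negative populations 1 of the 76 genes fell in NeuroD1 relative to Glu cells, where 0.126% of all genes did, and 0 rose, where 0.363% of all did. At an unadjusted p under 0.05 the counts were 18 lower and 1 higher, where 4.26% and 4.79% of all genes were, and DESeq2 called 5 lower and 0 higher, where 0.3% and 0.886% of all were. The gene was Ccl22, with 3 counts in NeuroD1 negative against 486 in Glu negative libraries, a ratio of 138 (47 to 673). Of the 486 counts 349 came from Glu_negative_5254, without which the call was lost (adjusted p = 0.276), as it was without NeuroD1_negative_6360 (adjusted p = 0.0847) or NeuroD1_negative_6362 (adjusted p = 0.0768). The median of the 76 genes was -1.06 against -0.01 over all genes. Ccl5 had 45.1, 47.2 and 48 CPM in NeuroD1 negative libraries, against 166 and 149 CPM in Glu negative libraries, and its change of -1.75 ± 0.58 did not pass (adjusted p = 0.296).

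No gene passed the test of a difference between the strains' changes, NeuroD1 minus Glu, in which 0.0907% of all genes passed as higher and 0.0209% as lower. At an unadjusted p under 0.05 there were 5 higher and 21 lower, where 4.05% and 6.82% of all genes were. DESeq2 called Ccl22 as higher and Ccl25, Ccl6, Ccr9, Il13ra1, Il22 and Il27ra as lower, where 0.398% and 0.823% of all genes were. The lowest adjusted p in edgeR was that of Ccr9, with a difference of -5.67 (adjusted p = 0.0869), which was -3.55 ± 0.77 (adjusted p = 0.0564) without Glu_positive_5254. The difference in Ccl25 was -1.88 ± 0.47 (adjusted p = 0.133).

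The receptor chains Il13ra1 and Il18r1 had changes of opposite sign between the strains, with no overlap within either strain. This pattern was picked after the values were seen. How many of all tested genes share it was not counted, so it cannot be set apart from their share. Il13ra1, a chain of the IL-13 receptor, had 21.7, 25.6 and 18.4 CPM in NeuroD1 positive against 35.6, 39.7 and 48.5 CPM in NeuroD1 negative libraries. It had 81.6, 51.7 and 33 CPM in Glu positive against 25 and 17.6 CPM in Glu negative libraries. The difference of -2.29 ± 0.66 did not pass (adjusted p = 0.21). Il18r1, a chain of the IL-18 receptor, had 21.3, 16.8 and 21.6 CPM in NeuroD1 positive against 9.52, 8.03 and 9.17 CPM in NeuroD1 negative libraries. It had 22.8, 20.7 and 14 CPM in Glu positive against 28.3 and 48.5 CPM in Glu negative libraries, and the difference of 2.16 ± 0.71 did not pass (adjusted p = 0.279).

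Other genes of the same pathways, whose symbols lie outside the name pattern, were read from a list of 50 adaptors, kinases, transcription factors, decoy receptors and related cytokines, of which 39 were tested. In NeuroD1 positive cells 5 of the 39 fell, where 7.61% of all genes did, and 0 rose, with a median of -0.7 over the list against 0.02 over all genes. Stat4, the transcription factor downstream of IL-12, fell to 0.367, 0 and 0.424 CPM in NeuroD1 positive libraries, against 7.75, 3.51 and 9.17 CPM in NeuroD1 negative libraries (adjusted p = 0.00251). Csf2rb, the chain shared by the IL-3, IL-5 and GM-CSF receptors, fell by -3.91 ± 0.84 (adjusted p = 0.00374). The chemerin-binding receptor Ccrl2 fell by -3.74 ± 0.79 and the oncostatin M chain Osmr by -3.71 ± 0.92. In Glu positive cells Csf2rb fell by -3.81 ± 0.81 (adjusted p = 0.00839), and no other gene of the list passed, so 1 of 39 fell where 2.41% of all genes did. Between the positive populations 3 of 39 fell in NeuroD1 cells, where 4.95% of all genes did. The counts are small and not far from those shares. The 3 were Stat4, at 8.26 to 33.1 CPM in Glu positive libraries, and Ccrl2 and Jak2, by -2.83 ± 0.78 and -1.51 ± 0.45. Jak2 had 202 CPM in Glu_positive_5254, against 72.7 and 72.6 CPM in the other Glu positive libraries. No change without Glu_positive_5254 is given for these 3. Jak1 (0.74 ± 0.39) and Traf6 (0.77 ± 0.44), kinase and adaptor of many of these receptors, did not pass in NeuroD1 positive cells.

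The 17 genes that did not pass the filter had 20 to 138 counts over all libraries. They were Ccl21a, Ccl27a, Ccr8, Cxcl1, Cxcl3, Cxcl11, Cxcl13, Cxcl14, Cxcl15, Il2, Il4, Il7, Il11, Il13, Il21, Il1rl2 and Il1bos. Among them Il21 had 110 of its 138 counts in Glu_positive_5254, Il13 44 of 62 and Il4 25 of 38. Il2, the T cell growth factor, was at 2.07 CPM or below in every library. Ccr8 and Il1rl2 were at 0 in all 6 NeuroD1 libraries. Ccl21a and Ccl27a have near-identical copies in the mouse genome, so their counts are uncertain.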

How the data were processed

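RNA-seq of 11 libraries of FACS-sorted mouse duodenal epithelial cells was read from 1 table of the whole series. Per the labels' protocols, 2 ng of RNA with a RIN above 7 was amplified with the Ovation kit before sequencing. The submitters' processing notes name TopHat2 2.1.0, Cufflinks 2.2.1 and GRCm38, with no role or order; which annotation release was counted, and whether by strand, is not given in the sources used here. Values deposited are estimated counts per gene, of which 848 genes have values that are not whole; they were rounded. Symbols and coordinates for 36341 of 38283 genes came from an annotation of GRCm38.

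Genes were filtered with filterByExpr, scaled by TMM and fitted over all 4 groups with edgeR 4.0.16 (quasi-likelihood, limma 3.58.1, R 4.3.3), and p-values were adjusted by Benjamini-Hochberg over all 14332 genes. There were 5 comparisons: positive over negative in each strain, NeuroD1 over Glu in positive and in negative cells, and the difference of the strains' changes. CPM use TMM-scaled library sizes, and ± after a log2 fold change is its SE. Where a group had 3 counts or fewer, a ratio with its exact 95% interval, or against 0 a bound from 3 counts over the group, replaces the fold change; such intervals and bounds reflect counting error alone, because the amplified reads have no molecular identifiers and are not separate molecules. The scripts were tested on simulated data. Alternatives were DESeq2 1.42.0, size factors of another kind, no filter, a replicate block, fits of the compared groups alone and leaving out each library.

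The genes, the lists of pathway and marker genes and the tests were chosen with earlier results of these data known. The genes named are Ccl5, Ccr4 and Il17a, up to 15 called per comparison and direction by size, up to 6 that did not pass by mean CPM, and up to 4 called per list, with Neurod1 and Gcg as the check of the sort; any others were named after their values were seen. Some genes are not reported here.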

Additional observations from a re-analysis of the deposited data

How the results depend on the processing

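Over 83 pairs of a named gene and a comparison, alternatives gave 1423 values: 1255 kept the direction and the side of the threshold, 149 lost the call, 13 gained one and 6 turned sign, 0 of them for a called gene. The turned signs were Ccr4 in the Glu comparison, -0.61 without Glu_positive_5254 and up to 1.98 without single others, and the difference between strains in Ccl5. That was 0.11 with the replicate block, 0.17 without NeuroD1_positive_6360 or NeuroD1_positive_6361, 0.08 without Glu_positive_5254, 0.20 without Glu_positive_5160 and at the lowest -1.39 without NeuroD1_positive_6362. Fitting the groups compared alone gave 21 lower genes in NeuroD1 cells and 7 in Glu cells. It gave 13 lower and 0 higher between the positive populations, and 5 lower between the negative ones. In the same order, 2673 of 11507, 340 of 13249, 565 of 11539 and 123 of 12971 genes were called in these fits. No filter on low counts gave 7 higher in Glu cells, 5 lower between the negative populations, and 1 higher and 9 lower in the difference between strains. Of all 23468 genes it called 1551 (62.2% higher), 245 (62.4% higher) and 338 (23.1% higher) in these comparisons. DESeq2 gave 3 higher in Glu cells, 2 higher between the positive populations, 5 lower between the negative ones, and 1 higher and 6 lower in the difference. Library totals, an alternative chosen after seeing the data, gave 3 lower between the negative populations and 1 lower in the difference. Of all 14332 genes they called 84 (54.8% higher) and 25 (56% higher) there. Leaving out single libraries gave 2 to 2 higher and 22 to 36 lower in NeuroD1 cells, 0 to 4 and 2 to 13 in Glu cells, 0 to 1 and 15 to 30 between the positive populations, 0 to 4 lower between the negative ones, and 0 to 0 higher and 0 to 1 lower in the difference; the cause of these moves was not tested.

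Library numbers are shared by positive and negative libraries. Deviations of same-numbered libraries from their group means correlated by 0.00984 to 0.0459. With so few libraries per group these deviations depend on each other, so the correlations cannot decide whether same-numbered libraries are paired. With the replicate block, 33 genes were lower in NeuroD1 and 10 in Glu positive cells, and 1 gene, Ccl6, was lower in the difference between strains. In NeuroD1 cells Il10 (adjusted p = 0.0846) and Il12rb2 (0.0575) lost the call with the block while Ccr3 (0.0285) and Il18 (0.0388) gained one, and in Glu cells Ccl11, Ccr3 and Il2rb lost it. The block cannot be fitted between the strains, which share no number. With 2 libraries in the Glu negative group and 2279595 to 5722381 counts per library, genes at a few counts carry wide intervals, and DESeq2 gave no adjusted p for 12 of the pairs.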
